A study of Saccharomyces cerevisiae with 10 samples.

Results

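The endoplasmic reticulum (ER) is where yeast folds its secreted and membrane proteins. The 10 genes described here are the sensor IRE1 and transcription factor HAC1 of the unfolded protein response, the HSP70 chaperones KAR2 and LHS1 with their cofactors SIL1 and JEM1, and PDI1, EUG1, MPD1 and ERO1, which serve disulfide bond formation. They were selected by gene symbol in the annotation of the Affymetrix Yeast Genome 2.0 array. All 10 were found, each with 1 probe set, among 5449 Saccharomyces cerevisiae genes measured. Total RNA came from 5 points of a growth regime in YPD medium at 30 °C, each with 2 of the 10 arrays. Sample A was in log-phase normal growth. Sample B cells had spent 1 h in YPD with 1 M KCl and were still adapting, and Sample C cells had adapted to the same medium. Sample D was taken 1 h after cells had been returned to medium without KCl, and Sample E 2 to 3 generations later, after recovery. The 2 replicate cultures were grown on different occasions, and group means below are over n = 2 arrays.

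All samples came from 1 haploid strain, called BQS1350 in the labels. The methods describe a BY4742 strain of mating type α with a MYC13 tag and the KanMX6 marker on Gcn5, and with the alleles ura3-0, lys2-0, leu2-0 and his3-1, so no untagged strain was measured. As a check, LYS2 and URA3 lay below the 95th percentile of probe sets for other organisms, which served as a background level, on all 10 arrays, whereas LEU2 (5.18 to 5.99, log2) and HIS3 (10.21 to 11.58) lay above it. The α-specific genes MF(ALPHA)1 (13.20 to 14.00) and STE3 (11.77 to 12.74) read high. MF(ALPHA)2, also α-specific, varied more (10.35 to 14.06) and was lowest on the Sample B arrays (12.70 and 10.35). The a-specific genes STE2 (6.00 to 6.86), MFA1 (6.61 to 7.45) and BAR1 (6.01 to 7.16) read lower but also lay above the background level on all 10 arrays, and MFA2 did on 6. GCN5, which is tagged and not deleted, read 7.64 to 8.89.

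When unfolded proteins build up in the yeast ER, the membrane kinase and endoribonuclease Ire1 cuts an intron out of HAC1 mRNA, and the spliced mRNA is translated into Hac1. Hac1 then raises the transcription of ER chaperones and oxidoreductases, KAR2 and PDI1 among its known targets. The array gives 1 value for HAC1 mRNA. The position of its probes relative to the intron was not used here, so the values below say nothing about splicing. Each value is an average over a culture, in which a change in part of the cells and a smaller change in all of them cannot be told apart.

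Each of the 10 genes lay above the background level on all 10 arrays, by at least 2.05 log2 units (JEM1). The replicates of Sample B were less alike than those of any other sample, and 5 of the 10 genes differed by 0.5 or more (log2) between them, against 62.5% of all genes. In Sample C 2 of the 10 did (19.7% of all genes), in Sample A 1 (22.5%), in Sample D 0 (10.8%) and in Sample E 0 (26.2%). Array medians differed too, with the highest on Sample B replicate 2 (10.19), so statements on overlap are also given below with each array centred on its median. Both Sample B arrays also lay outside the range of the others for 3 of 6 ribosomal RNA controls and for 2 of 7 mRNA controls read as 3′ minus 5′ signal, EAF5 and ACT1. For 18S ribosomal RNA, the 3′ control gave 10.09 and 10.31 in Sample B, and 11.21 to 12.66 elsewhere. For 25S ribosomal RNA, the 5′ control gave 11.14 and 10.14 in Sample B, and 11.66 to 12.04 elsewhere. The 3′ excess of EAF5 was 1.16 and 1.31 in Sample B, and 0.76 to 1.08 elsewhere. That of ACT1 was 0.18 and 0.56 in Sample B, on either side of the 0.25 to 0.38 elsewhere. The excess of WBP1 (0.98 and 1.30 in Sample B) did not stand apart (0.84 to 1.31 elsewhere). The part of these differences in the results for Sample B was not tested.

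None of the 10 genes passed an adjusted p of 0.05 in limma's test in any of 7 comparisons between samples, nor in its test for any difference among the 5 samples. Over all genes, the share called in Sample B against Sample A was 3.51% for higher and 0.899% for lower. It was 0.0184% higher and 0% lower in Sample C against Sample A, and 0% in either direction in the other 5 comparisons. The test for any difference among the samples called 0.532%. At an unadjusted p under 0.05 limma found HAC1 in Sample C against Sample B and MPD1 in Sample D against Sample B, and no other member in the 7 comparisons. Group means of a gene spanned from 0.34 (PDI1) to 0.96 (MPD1) on the log2 scale between its highest and lowest sample. So the data give levels and bounds for these genes, and no call. Of the 10 possible pairs of samples, none passed for any of the 10 genes, so no 2 neighbours in the order of a gene's levels were told apart. The lowest adjusted p of all these pairs was 0.284, for MPD1 in Sample D against Sample B. Before adjustment HAC1 also passed in Sample E against Sample C, a pair outside the 7 comparisons.

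**Figure D1:**
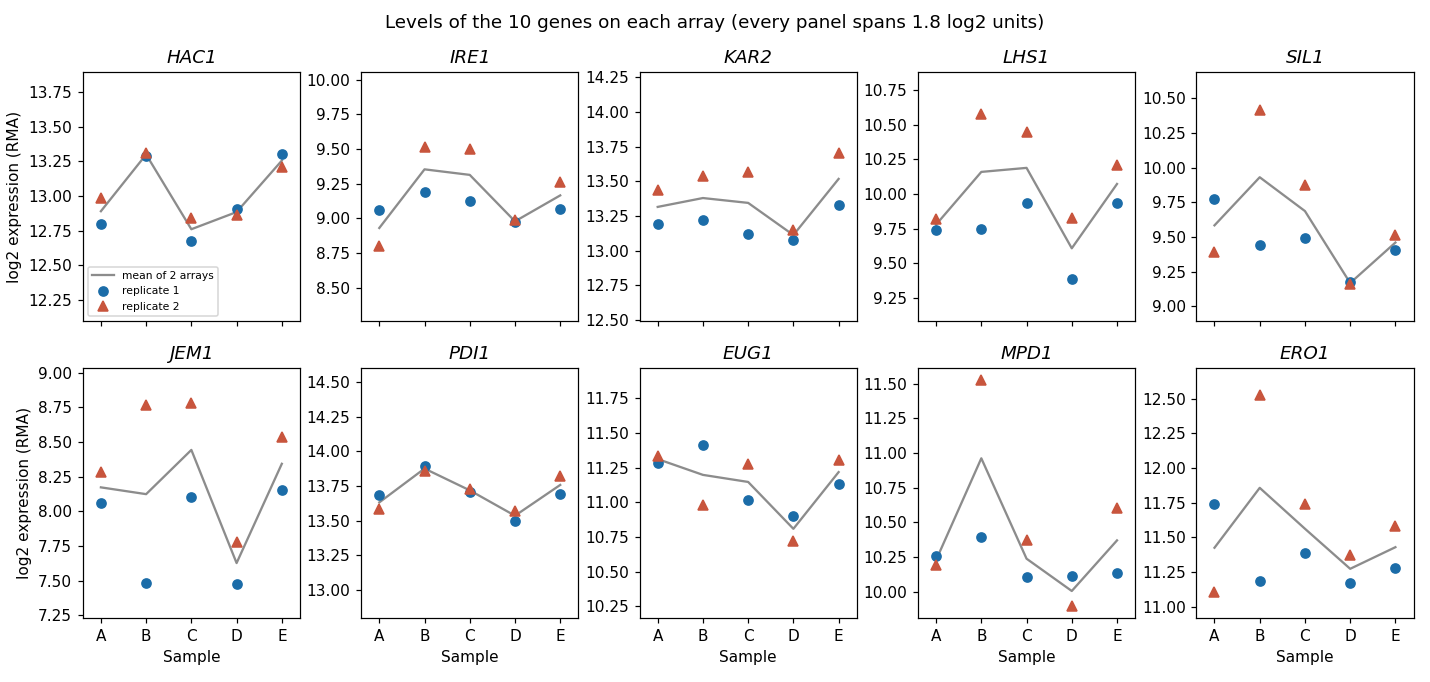
Log2 expression values of the 10 genes on each array, by sample (A to E). Blue circles are replicate 1, red triangles replicate 2, and the grey line joins the means of 2 arrays. Every panel spans the same range of log2 units, and the replicates of SIL1, JEM1, MPD1 and ERO1 lay far apart in Sample B whereas those of HAC1 and PDI1 nearly coincided.

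HAC1 and IRE1 form the signalling arm of the response. HAC1 read 12.80 and 12.99 on the Sample A arrays, 13.29 and 13.31 in Sample B, 12.68 and 12.84 in Sample C, 12.91 and 12.86 in Sample D, and 13.30 and 13.21 in Sample E. Both Sample B arrays and both Sample E arrays thus lay above all 6 arrays of the other samples, and the replicates of each sample stayed within 0.19 of each other. With each array centred on its median this separation was lost, since Sample B replicate 2 (3.12 above the median) and Sample E replicate 2 (3.12) then lay below Sample A replicate 2 (3.30) and both Sample D arrays (3.31 and 3.18). Relative to Sample A, HAC1 mRNA stood 1.33-fold higher in Sample B, a log2 difference of 0.41 ± 0.21 (SE here and below, limma adjusted p = 0.333), and 0.37 ± 0.21 higher in Sample E (adjusted p = 1). The step from Sample B to Sample C had the largest size of the 7 comparisons for this gene. HAC1 stood at 12.76 in Sample C and 13.30 in Sample B, a log2 difference of −0.54 ± 0.21 (−0.61 in replicate 1 and −0.47 in replicate 2). This step passed 0.05 in limma's test before adjustment, with an adjusted p = 0.433.

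IRE1 had its lowest mean in Sample A, where it read 9.06 and 8.80. It read 9.19 and 9.51 in Sample B, 9.12 and 9.50 in Sample C, 8.97 and 8.99 in Sample D, and 9.07 and 9.26 in Sample E. Arrays of Samples B, C and E all lay above both arrays of Sample A, and those of Sample D between them. After median centring Samples B, C and D lay above Sample A, and Sample E overlapped with it. The difference of Sample B from Sample A was 0.42 ± 0.25 (adjusted p = 0.39) and that of Sample C 0.38 ± 0.25 (adjusted p = 1). Both came mostly from replicate 2, with 0.71 and 0.70 there against 0.13 and 0.06 in replicate 1.

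KAR2 encodes BiP, the abundant HSP70 of the ER lumen, and is the classical reporter of the unfolded protein response. It read 13.19 and 13.44 in Sample A, 13.22 and 13.54 in Sample B, 13.12 and 13.57 in Sample C, 13.08 and 13.15 in Sample D, and 13.33 and 13.70 in Sample E. The arrays of Samples A, B, C and E overlapped, and those of Sample D lay lowest but for 1 array of Sample C. The difference of Sample B from Sample A was 0.06 ± 0.26 (limma adjusted p = 0.926), and its 95% interval ran from −0.54 to 0.67, which leaves out a doubling. For Sample C against Sample A it was 0.03 ± 0.26, with an interval from −0.57 to 0.63. Within a culture batch the differences of Sample B from Sample A were 0.03 and 0.10.

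LHS1, another HSP70-type protein that acts as nucleotide exchange factor of Kar2, had its highest mean in Sample C. It read 9.74 and 9.82 in Sample A, 9.74 and 10.57 in Sample B, 9.93 and 10.44 in Sample C, 9.39 and 9.83 in Sample D, and 9.94 and 10.21 in Sample E. Arrays of Sample C lay above those of Sample A by 0.41 ± 0.33 on average (adjusted p = 1) and above those of Sample D, where LHS1 stood at −0.58 ± 0.33 relative to Sample C (−0.54 and −0.62 in the 2 replicates, adjusted p = 1).

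SIL1, another exchange factor of Kar2, read 9.78 and 9.39 in Sample A, 9.45 and 10.42 in Sample B, 9.50 and 9.88 in Sample C, 9.17 and 9.16 in Sample D, and 9.40 and 9.52 in Sample E. Both Sample D arrays lay below all others, though after median centring Sample E replicate 2 was lower. The replicates disagreed in Sample B, where the difference from Sample A was −0.33 in replicate 1 and 1.03 in replicate 2. Sample D stood at −0.76 ± 0.34 relative to Sample B (adjusted p = 0.354) and at −0.42 ± 0.34 relative to Sample A (adjusted p = 1).

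JEM1 encodes a J-domain partner of Kar2. It read 8.06 and 8.28 in Sample A, 7.48 and 8.77 in Sample B, 8.10 and 8.79 in Sample C, 7.48 and 7.78 in Sample D, and 8.15 and 8.53 in Sample E. Of the 4 chaperone genes it had the widest gap between the Sample B arrays, 1.29, and these arrays lay on either side of both Sample A arrays. Sample D lay below Samples A, C and E without overlap, also after median centring. Its difference was −0.82 ± 0.42 from Sample C (−0.62 and −1.01 in the 2 replicates) and −0.55 ± 0.42 from Sample A, each with an adjusted p = 1.

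PDI1 encodes the essential protein disulfide isomerase, and its values spanned the narrowest range of the 10 genes. It read 13.68 and 13.58 in Sample A, 13.90 and 13.85 in Sample B, 13.71 and 13.73 in Sample C, 13.50 and 13.57 in Sample D, and 13.69 and 13.82 in Sample E. Both Sample B arrays lay above all others and both Sample D arrays below all others. This order did not hold after median centring, where Sample B replicate 1 was the highest of the 10 arrays (4.30 above the median) and Sample B replicate 2 the lowest (3.66). The difference of Sample B from Sample A was 0.24 ± 0.21 (adjusted p = 0.572, 95% interval −0.23 to 0.72), with 0.21 in replicate 1 and 0.27 in replicate 2. Relative to Sample B, Sample D stood at −0.34 ± 0.21 (adjusted p = 0.478).

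EUG1 encodes a protein related to Pdi1 that can replace it in part when overproduced. It was the 1 gene of the 10 with its highest mean in Sample A, where it read 11.29 and 11.33. It read 11.41 and 10.98 in Sample B, 11.02 and 11.28 in Sample C, 10.90 and 10.72 in Sample D, and 11.13 and 11.30 in Sample E. The 2 Sample D arrays lay below all others on the deposited scale, but after median centring Sample B replicate 2 was lowest and Sample E replicate 2 lay between the Sample D arrays. On the deposited scale Sample D stood at −0.50 ± 0.24 relative to Sample A (−0.39 and −0.62 in the 2 replicates, limma adjusted p = 1). In Sample B its replicates moved apart, with a difference from Sample A of 0.13 in replicate 1 and −0.35 in replicate 2.

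MPD1 encodes a further member of the disulfide isomerase family and ERO1 the thiol oxidase that reoxidises Pdi1. MPD1 read 10.26 and 10.20 in Sample A, 10.40 and 11.52 in Sample B, 10.10 and 10.37 in Sample C, 10.11 and 9.90 in Sample D, and 10.14 and 10.60 in Sample E. Its mean difference of Sample B from Sample A was the largest of the 10 genes, 0.73 ± 0.36 (1.66-fold, adjusted p = 0.308), but it was 0.14 in replicate 1 and 1.33 in replicate 2. ERO1 read 11.74 and 11.11 in Sample A, 11.18 and 12.53 in Sample B, 11.38 and 11.74 in Sample C, 11.17 and 11.37 in Sample D, and 11.27 and 11.58 in Sample E. For ERO1 the 2 replicates differed in sign, with −0.56 and 1.42, around a mean of 0.43 ± 0.43 (adjusted p = 0.632).

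The first comparison addressed what happened to the ER folding genes 1 h after transfer into KCl. As a group they stood slightly above Sample A. Their median log2 difference was 0.36, against 0.08 over all genes, with 8 of 10 above 0. The share of all genes above or below 0 was not counted, here or in the comparisons below. By replicate, the median was 0.08 in replicate 1 (−0.18 over all genes) and 0.60 in replicate 2 (0.44 over all genes). At an unadjusted p under 0.05 limma found none of the 10, against 12.4% of all genes higher and 7.58% lower. None reached the 1.8-fold change that the study used to select regulated genes, which 12.4% of all genes did upward and 5.54% downward. Of the 10 genes 4 (HAC1, IRE1, PDI1 and MPD1) had both Sample B arrays above both Sample A arrays, against 23.1% of all genes, and none had both below (15.9%). After median centring these were 3 (IRE1, LHS1 and MPD1) against 21.5%, and 0 against 22.6%. For 5 genes (HAC1, IRE1, KAR2, PDI1 and EUG1) the 95% interval left out a 2-fold change in either direction, whereas the intervals of LHS1, SIL1, MPD1 and ERO1 included a doubling and that of JEM1 a halving. The differences depended on which Sample B array was kept. With 1 array left out in turn, they ran from 0.17 to 1.30 for MPD1, −0.24 to 1.10 for ERO1 and −0.14 to 0.84 for SIL1. The highest values came without Sample B replicate 1. That leaves 1 array in Sample B and no spread of its replicates, so no call is drawn from it. The fit of all 10 arrays takes the same spread for all groups, so SEs of comparisons with Sample B can be too small. Likewise, SEs and intervals of comparisons without Sample B can be too wide. For JEM1 the SD was 0.91 in Sample B and 0.16 to 0.48 in the other samples.

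**Figure D2:**
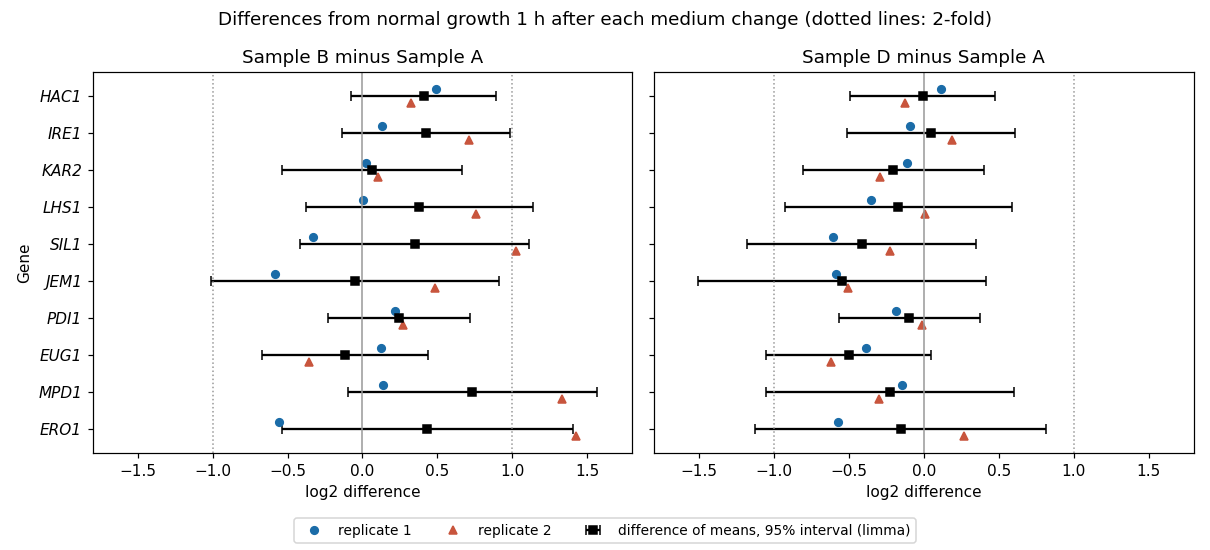
Log2 differences of Sample B (left) and Sample D (right) from Sample A for each gene. Squares are differences of the means with 95% intervals from limma, circles and triangles the differences within replicate 1 and replicate 2, and dotted lines mark a 2-fold change. All 10 intervals crossed 0 in both panels, and ERO1 and SIL1 in Sample B had the widest separation of replicates.

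After adaptation to KCl (Sample C), the genes lay close to their levels in normal growth. The median difference from Sample A was 0.10, against −0.01 over all genes, and the differences ran from −0.16 (EUG1) to 0.41 (LHS1), with an adjusted p of 1 for each. At an unadjusted p under 0.05 limma found none (3.1% of all genes higher, 1.58% lower), and none reached 1.8-fold (3.89% higher, 1.21% lower). IRE1, LHS1 and PDI1 had both Sample C arrays above both Sample A arrays (3 of 10, against 18.1% of all genes) and EUG1 both below (1 of 10, against 17.8%), of which IRE1 and LHS1 (21.4%) and EUG1 (23.9%) remained after median centring. For 7 of the 10 genes the 95% interval left out a 2-fold change in either direction, the exceptions being LHS1, JEM1 and ERO1. Relative to Sample B, Sample C stood lower without overlap in HAC1, PDI1 and MPD1 (3 of 10, against 19.1% of all genes), with a log2 difference of −0.72 ± 0.36 for MPD1 (adjusted p = 0.555). HAC1 was the 1 gene lower at an unadjusted p under 0.05 (7.71% of all genes lower, 2.59% higher), and none of the 10 reached 1.8-fold (8.37% lower, 2.28% higher). No gene of the 10 stood higher without overlap (12.4% of all genes). After median centring, HAC1 and MPD1 were lower without overlap (18.8%) and none higher (18%). With 1 array left out in turn, the difference of Sample C from Sample B ran from −1.29 to −0.16 for MPD1 and from −0.97 to 0.38 for ERO1. The lowest values came without Sample B replicate 1, which leaves 1 array in Sample B.

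One hour after the return to normal medium (Sample D), most of the ER genes were at the low end of their range. Sample D had the lowest of the 5 group means for 8 of the 10 genes, all but HAC1 and IRE1, and for 38.0% of all genes. After each array was centred on its own median, it was lowest for 6 of the 10 (KAR2, LHS1, SIL1, JEM1, EUG1 and MPD1), against 14.3% of all genes. No test was made of this count. Against Sample A, 9 of 10 differences were below 0, with a median of −0.19 (−0.12 over all genes), and HAC1 and PDI1 turned above 0 with median centring. Both Sample D arrays lay below both Sample A arrays for 6 genes, KAR2, SIL1, JEM1, PDI1, EUG1 and MPD1, against 31.8% of all genes, and none had both above (9.97%). After median centring SIL1, JEM1 and EUG1 lay below (18.1%) and IRE1 above (19.7%). At an unadjusted p under 0.05 limma found none of the 10 (2.51% of all genes higher, 1.5% lower). The largest of these differences were −0.55 for JEM1 and −0.50 for EUG1, and none reached 1.8-fold, against 0.826% of all genes lower and 3.06% higher by this measure.

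Removal of KCl from adapted cells was compared directly in Sample D against Sample C. The 4 genes of the HSP70 group had a median of −0.55, with JEM1 at −0.82, LHS1 at −0.58, SIL1 at −0.52 and KAR2 at −0.23, and the 4 disulfide genes a median of −0.26, against −0.09 over all genes. The groups overlapped, with EUG1 (−0.34) and ERO1 (−0.29) lower than KAR2, and the difference between the groups was not tested. Most of the 63 genes in the other ER lists described below also stood lower, with 6 above 0 and a median of −0.22. The lowest list medians were those of other oxidoreductases (−0.51), ER-associated degradation (−0.36) and other chaperones and J-proteins (−0.35). Of the 10 genes 7 had both Sample D arrays below both Sample C arrays (29.5% of all genes), and HAC1 had both above (13.7%). After median centring, 7 (24%) lay below, KAR2 among them and PDI1 no longer, and HAC1 (23.9%) above. None of the 10 passed an unadjusted p of 0.05 (3.56% of all genes lower, 1.39% higher) or reached 1.8-fold (2.53% lower, 1.54% higher). With the culture batch as a block, JEM1 and LHS1 passed limma's test before adjustment (6.88% of all genes lower, 2.04% higher), but not after it (adjusted p = 0.473 and 0.509).

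The 2 samples taken 1 h after a medium change were compared in Sample D against Sample B. All 10 differences were below 0 in both replicates, where the median of all genes was 0.01 in replicate 1 and −0.48 in replicate 2. After median centring, 9 were below 0 in replicate 1 and 6 in replicate 2, with HAC1, KAR2, PDI1 and EUG1 above 0 there. On the deposited scale the median difference was −0.46, against −0.22 over all genes, with the lowest values for MPD1 (−0.96 ± 0.36, adjusted p = 0.284) and SIL1. MPD1 was the 1 gene of the 10 that was lower by 1.8-fold or more (10.8% of all genes lower, 2.68% higher) and the 1 that passed before adjustment (11.2% lower, 2.88% higher). With the culture batch as a block, LHS1, SIL1 and MPD1 passed limma's test before adjustment (18.1% of all genes lower, 3.69% higher). None of these 3 passed after it (adjusted p = 0.224, 0.207 and 0.138). For 7 of the 10, all but LHS1, JEM1 and ERO1, both Sample D arrays lay below both Sample B arrays (29% of all genes), and none had both above (11.2%). After median centring, LHS1, SIL1 and MPD1 did so (20%). In replicate 1 all differences lay between −0.51 and 0, whereas in replicate 2 they reached −1.63. Without Sample B replicate 1, which leaves 1 array in Sample B, the differences were −1.52 (MPD1), −1.26 (ERO1), −1.25 (SIL1), −1.14 (JEM1) and −0.97 (LHS1). With 1 array left out in turn, their highest values were −0.39, 0.09, −0.28, 0.15 and −0.14, in the same order.

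Cells that had recovered (Sample E) were set against cells that had never been stressed. The differences from Sample A ran from −0.12 (SIL1) to 0.37 (HAC1), with a median of 0.16 that was close to the 0.13 of all genes. For 8 of the 10 genes the 95% interval left out a 2-fold change in either direction, and the intervals of LHS1 and JEM1 reached 1.05 and 1.13. HAC1, IRE1, LHS1 and PDI1 had both Sample E arrays above both Sample A arrays (4 of 10, against 21.8% of all genes), and none had both below (0.936%). After median centring none of the 10 had both above (10.1%), and SIL1 and EUG1 had both below (15.5%). At an unadjusted p under 0.05 limma found none of the 10 (0.807% of all genes higher, 0.0551% lower), and none reached 1.8-fold (1.63% higher, 0.165% lower). KAR2 had its highest mean here, at 13.52 in Sample E against 13.32 in Sample A, with overlapping arrays.

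**Figure D3:**
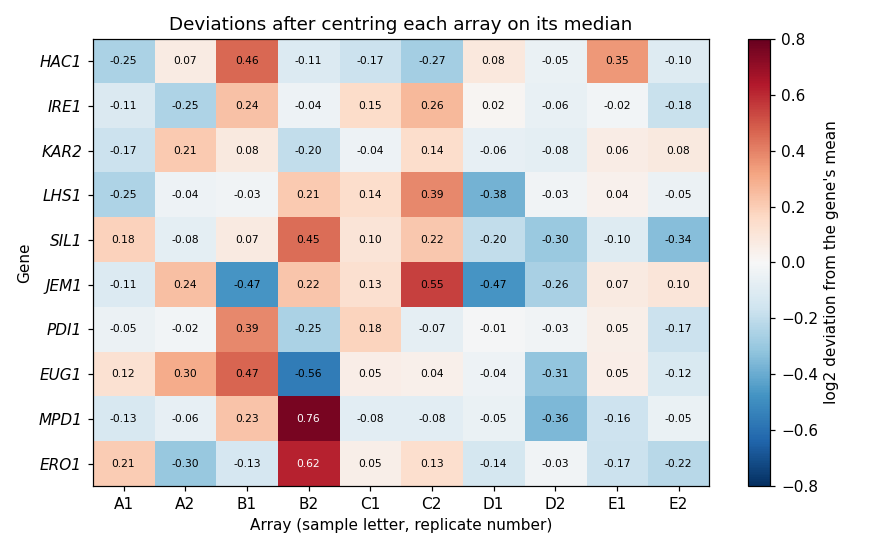
Deviation of each gene from its own mean over the 10 arrays, after each array was centred on its median, in log2 units. Columns are arrays by sample letter and replicate number, red is above and blue below the mean. MPD1 (0.76) and ERO1 (0.62) stood out on Sample B replicate 2, where EUG1 (−0.56) and PDI1 (−0.25) lay below their means.

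The genes did not share a single profile over the 10 arrays. Likeness was measured by the deviations of 2 genes from their own means, as the root mean square of their log2 differences over the arrays. Among the members ERO1 and SIL1 were closest, at 0.15. The 5 genes nearest to KAR2 by this measure were HOC1, SPT5, PXL1, SLM2 and GEA2 (0.055 to 0.069), whereas PDI1, the nearest of the other members, was 0.18 away and ranked 656th. KAR2 had an SD of 0.22 over the arrays and PDI1 one of 0.13. The values were not centred on array medians, so a shift of a whole array enters the measure. This ranking is a description, with no test.

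Other genes of the ER folding pathway were counted in 7 lists. Of their 63 genes none passed limma's test in any of the 7 comparisons. Before adjustment, 2 were higher and 2 lower in Sample B against Sample A (12.4% of all genes higher, 7.58% lower). In Sample D against Sample B 4 were lower (11.2% of all genes lower, 2.88% higher). None passed in the other 5 comparisons (0.0551% to 7.71% of all genes in 1 direction). In Sample B against Sample A they stood above 0 in 42 cases, and their median difference was 0.12. Of the 63 genes, 2 reached 1.8-fold or more in Sample B, both higher (12.4% of all genes higher, 5.54% lower). UBX2, which recruits Cdc48 to the ER membrane for ER-associated degradation, stood 1.04 ± 0.32 higher (0.80 and 1.27 in the 2 replicates, adjusted p = 0.113), and GTB1, a subunit of glucosidase II that trims N-linked glycans, 1.00 ± 0.32 higher (0.95 and 1.06, adjusted p = 0.117). With the culture batch as a block both passed, with adjusted p = 0.0291 for UBX2 and 0.0173 for GTB1. By that fit 8.11% of all genes were higher and 2.59% lower.

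Within the lists, the 16 genes of ER-associated degradation had a median of 0.34 in Sample B against Sample A (−0.03 in replicate 1 and 0.82 in replicate 2), with USA1, a scaffold of the ubiquitin ligase complex, next after UBX2 (0.81, adjusted p = 0.295). The 12 oligosaccharyltransferase and glucosidase genes had a median of 0.16 (0.22 and 0.13 by replicate), with ROT2, the catalytic subunit of glucosidase II, next after GTB1 (0.54, adjusted p = 0.413). The 4 other oxidoreductase genes had a median of 0.43 (−0.03 in replicate 1 and 0.90 in replicate 2), led by FMO1 (0.62, adjusted p = 0.461) and EPS1 (0.54, adjusted p = 0.437). The 7 other ER chaperone and J-protein genes had a median of 0.12, with ROT1 (0.67, adjusted p = 0.355) and CNE1, yeast calnexin (0.23, adjusted p = 0.641), farthest from 0. The 8 translocon genes (median −0.08) were led by SEC62 (−0.42, adjusted p = 0.403) and SEC72 (−0.35, adjusted p = 0.627), and the 13 export genes (median 0.05) by SEC16 (0.39, adjusted p = 0.609) and SEC31 (0.35, adjusted p = 0.399). Of the genes that act on the signalling arm, TRL1, the tRNA ligase that joins the HAC1 exons, stood at −0.74 ± 0.29 (−1.20 and −0.28 in the 2 replicates, adjusted p = 0.194), PTC2, a phosphatase that acts on Ire1, at −0.57 ± 0.22 (adjusted p = 0.191), and DCR2, another such phosphatase, at 0.66 ± 0.31 (adjusted p = 0.279).

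The cytosolic chaperones give the scale of change in another compartment on the same arrays. Of 20 genes, 8 were higher by 1.8-fold or more in Sample B against Sample A, against 0 of the 10 ER genes and 12.4% of all genes. Their median (0.07) was nevertheless lower than that of the ER genes (0.36). Only 12 of the 20 stood above 0, and SSB2 was lowest (−0.53, limma adjusted p = 0.454). HSP26, a small heat shock protein, was 23.1-fold higher in Sample B (log2 4.53 ± 0.65, limma adjusted p = 0.0114, 4.68 and 4.38 in the 2 replicates) and was the 1 gene of this list that passed. SSE2 (2.25, adjusted p = 0.14), HSP42 (2.39, adjusted p = 0.119) and SSA1 (1.89, adjusted p = 0.132) did not pass, but did so with the culture batch as a block. By replicate they differed by 1.22 and 3.28, 1.12 and 3.67, and 2.63 and 1.14, in the same order. SSA4, next after HSP26 in size (3.13, limma adjusted p = 0.187), passed in neither fit (adjusted p = 0.0536 with the block). For SSA4 the difference was 1.18 in replicate 1 and 5.08 in replicate 2. Whether the 2 lists differed was not tested.

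**Figure D4:**
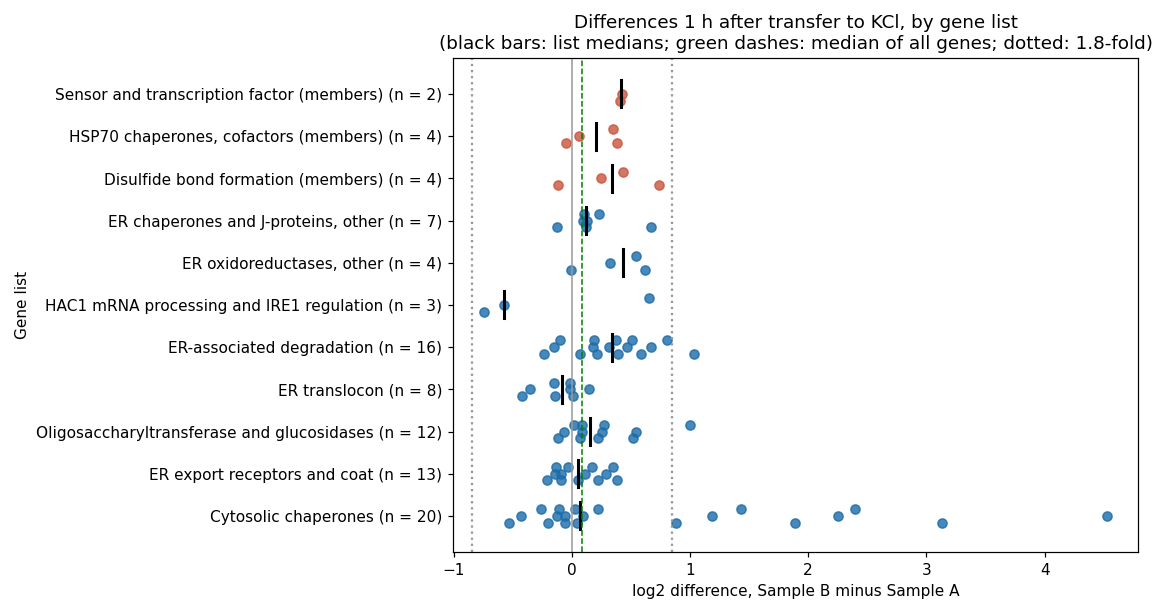
Log2 differences between Sample B and Sample A for every gene of the ER and cytosolic lists. Points are genes (red, the 10 genes described here), black bars list medians, the green dashed line the median of all genes (0.08), and dotted lines a 1.8-fold change. All 10 ER genes lay between the dotted lines, as did all but UBX2 and GTB1 of the other ER lists, whereas HSP26 reached 4.53.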

How the data were processed

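Total RNA from 10 samples of 2 replicate cultures was hybridised to Affymetrix Yeast Genome 2.0 arrays. The authors summarised the scans in Affymetrix Expression Console with RMA (robust multi-array averaging) and deposited 1 log2 value per probe set. The sources used here give no version of the program. RMA corrects background, normalizes arrays and summarises probes. Array medians still differed (9.59 to 10.19), so a shift of a whole array can enter each difference. Of 10928 probe sets, 5498 matched S. cerevisiae genes by gene identifier in the RefSeq table of assembly R64, and 1746 named probe sets of other identifiers gave the background level. For 47 genes with several probe sets the one with the highest mean was used. No sequences were used.

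Differences were tested with limma 3.58.1 (R 4.3.3), 1 coefficient per group over 10 arrays, adjusted by Benjamini-Hochberg over 5449 genes, two-sided. Intervals are 95% limma intervals from this fit, which leaves out the culture batch. Same-numbered arrays were taken as the same culture batch, and so as pairs. Their deviations from group means correlated between 0.22 and 0.52 in the 10 pairs of groups. With the batch as a block, the SE for Sample B against Sample A was 0.24 for LHS1 (0.33 without it) and 0.29 for JEM1 (0.42). Intervals with the block were not computed, and those given for LHS1 and JEM1 can be too wide. On simulated data for Sample B against Sample A (5449 genes) 13 of 100 genes with a true change of log2 1 passed, as did 66 of 100 with a true change of log2 2, beside 4 false calls. The simulated noise was independent between arrays, with the same spread for a gene in all groups. In the data the replicates of Sample B differed more (root mean square 1.04, against 0.32 to 0.48 elsewhere). These counts therefore do not measure how well the real comparison detects changes. All members were named, with the 2 genes of each other list that differed most in Sample B from Sample A, or up to 4 that passed. PTC2, SSA1, SSA4, SSE2 and HSP42 were added once their values were known. Members and lists were chosen with earlier results of these data known. The 2 arrays per group limit the precision.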

Additional observations from a re-analysis of the deposited data

How the results depend on the processing

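No member was called under the replicate block, median centring, quantile normalization, the filter on low values, all probe sets adjusted together, the mean of probe sets, array weights, an intensity trend, or the 2 groups of a comparison alone (0 called in each). In Sample B against Sample A, the block called 8.11% of all genes higher and 2.59% lower, and median centring 5.38% and 2.94%. In the other comparisons the block called 0% to 2.88% in 1 direction and median centring 0% to 0.0184%. Shares under the remaining settings are not given here. The block changed no call of a member, and of the other genes named it changed those of UBX2, GTB1, SSA1, SSE2 and HSP42 in Sample B against Sample A. Leaving out each array in turn gave 0 to 3 members in Sample B against Sample A, 0 to 2 in Sample C against Sample B, 0 to 5 in Sample D against Sample B and 0 to 1 for any difference among the samples. The higher counts all came without Sample B replicate 1, in fits that called 33.9%, 24.5%, 34.7% and 17.5% of all genes in the same order, and the other 4 comparisons stayed at 0. A fit of Samples A, C, D and E only, chosen after seeing the data, gave 0 members in its 4 comparisons. Over all genes, this fit called 1.74% for Sample C against Sample A and 0.642% for Sample D against Sample A. The share was 0.771% for Sample D against Sample C, and 0% for Sample E against Sample A. With shares this low, 0 members does not set the group apart from other genes.

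Of 670 differences of members under settings other than leaving out an array, 655 kept their direction and side of the threshold. The other 15 changed sign, all under another scaling between arrays and all within 0.15 of 0. Only median centring and quantile normalization could change a difference itself. The other settings left each difference as it was by design and could change only its p-value, so most of the 655 could not have changed sign. With median centring these were, in Sample B against Sample A, KAR2 (−0.08), in Sample D against Sample A, HAC1 (0.11) and PDI1 (0.016), in Sample E against Sample A, PDI1 (−0.028), MPD1 (−0.012) and ERO1 (−0.15), and in Sample C against Sample B, IRE1 (0.10), KAR2 (0.11) and EUG1 (0.094). With quantile normalization they were HAC1 (0.12) in Sample D against Sample A, JEM1 (−0.045), MPD1 (−0.011) and ERO1 (−0.13) in Sample E against Sample A, and IRE1 (0.10) and EUG1 (0.14) in Sample C against Sample B.

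Leaving out each array in turn changed the sign of 28 of the 70 differences of members at least once. The lowest and highest values without 1 array were, in Sample B against Sample A KAR2 −0.097 to 0.225, LHS1 −0.035 to 0.795, SIL1 −0.139 to 0.835, JEM1 −0.692 to 0.595, EUG1 −0.330 to 0.102 and ERO1 −0.241 to 1.105. They were, in Sample C against Sample A KAR2 −0.194 to 0.254, SIL1 −0.090 to 0.297, JEM1 −0.072 to 0.612, MPD1 −0.124 to 0.143 and ERO1 −0.179 to 0.454. They were, in Sample D against Sample A HAC1 −0.101 to 0.089, IRE1 −0.083 to 0.179, LHS1 −0.392 to 0.049 and ERO1 −0.468 to 0.165. They were, in Sample E against Sample A SIL1 −0.317 to 0.070, JEM1 −0.021 to 0.361, MPD1 −0.090 to 0.374 and ERO1 −0.313 to 0.321. They were, in Sample C against Sample B IRE1 −0.229 to 0.148, KAR2 −0.258 to 0.190, LHS1 −0.386 to 0.444, SIL1 −0.731 to 0.242, JEM1 −0.325 to 0.962, EUG1 −0.266 to 0.166 and ERO1 −0.967 to 0.379. They were, in Sample D against Sample B JEM1 −1.141 to 0.146 and ERO1 −1.256 to 0.090.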
